A study of Arabidopsis thaliana with 12 samples.

Results

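In all, 10 nuclear genes of Arabidopsis thaliana that are used as markers of perturbed mitochondria were followed in roots and shoots. They were taken by locus, as the probe sets that the platform annotation gives to AT2G21640, AT5G09570, AT2G41730, AT5G43450, AT2G04050, AT2G04070, AT5G51440, AT2G32020, NDB4 (AT2G20800) and AT1G24095. Each of these 10 loci had 1 probe set with 1 gene, of 13333 loci matched in this way and 22746 probe sets tested. The 10 genes were chosen with earlier results of these data known. Their counts below, beside the shares of all probe sets, therefore describe a chosen set and do not test it. When the respiratory chain is inhibited or short of a component, plant mitochondria signal to the nucleus, and a defined set of nuclear genes is induced. This retrograde response is known to run through membrane-bound NAC transcription factors released from the endoplasmic reticulum. The respiratory chain depends on Fe for its haem groups and Fe-S clusters, so Fe-deficient mitochondria are a setting in which the response is of interest.

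The study used 12 single-colour Affymetrix arrays, 2 biological replicates for each of 6 groups, with 1 group for each of 3 conditions in roots and in shoots. Wild-type Col-0 seedlings, raised for 10 days on control medium, spent 5 days on medium with 10 µM Fe-HBED, a chelated form of Fe, or on medium to which no Fe was added. The irt1 mutant (irt1-2, also called pam42) received the medium with Fe in those 5 days. It lacks IRT1, the main transporter for ferrous iron at the root surface, and is a single mutant line. All groups shared a sucrose-containing agar washed with EDTA to remove metals, and were harvested at 15 days of age, 3 h after lights on. The labels do not say how many seedlings made up a sample, or whether roots and shoots came from the same plants. The values are log2 expression levels, so a difference of 1 is a 2-fold change. They measure RNA per unit of total RNA from whole organs, in which fewer cells of a type and less RNA per cell cannot be told apart.

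The organs matched their labels in the few markers that could be read. A gene is called measured here where the platform annotation gives it a probe set with 1 gene, and 8730 of the 22746 probe sets tested carry no gene there, so an unmeasured gene may still be on the array. EXPA7, a root hair expansin, was the 1 measured of 8 root markers and lay between 7.9 and 8.4 on the log2 scale in roots against 4.1 to 4.5 in shoots. RCA (Rubisco activase) and PSAN (a photosystem I subunit) were the 2 measured of 6 green-tissue markers. Their summed signal lay between 12.84 and 13.51 on the log2 scale in shoots and between 6.84 and 8.33 in roots. Within roots that sum was 8.13 to 8.33 in wild type with Fe, 7.36 to 7.55 in irt1 and 6.84 to 7.11 in wild type without Fe, so a green-tissue signal moved with the root groups. In shoots RCA lay between 12.5 and 12.7 in all 3 groups, while PSAN read 12.1 and 12.3 in wild type with Fe, 11.1 and 11.2 in irt1 and 10.6 and 10.8 without Fe. Its part in the results below was not tested.

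A pair of shoot arrays stood apart, 1 in an RNA control and 1 in the marker genes. In irt1 shoots, replicate 1 had a 3′ minus 5′ log2 difference of 1.6 in the GAPDH control probe sets, a measure of RNA integrity, against 0.7 to 1 on the other 11 arrays. In the actin control probe sets this difference was 3.7 on that array, close to the range of 2.7 to 3.6 on the others. In wild-type shoots without Fe, replicate 1 exceeded replicate 2 in 10 of 10 marker genes, by 0.7 to 1.3 on the log2 scale. Of all probe sets, 0.734% differed by at least 0.7 in that direction between the same arrays, and their GAPDH differences were 0.8 and 1. Over all probe sets, the replicates of wild-type shoots with Fe were the least alike (r = 0.9910). There 2.45% of probe sets were higher by at least 0.7 in replicate 1, as were 8 of 10 marker genes by smaller or larger amounts, at most 0.9. Called shoot results are given below also without replicate 1 of irt1 shoots or of shoots lacking Fe, where that array was used. The regulators, respiratory subunits and stress genes below were not refitted without the arrays of wild-type shoots with Fe.

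**Figure D1:**
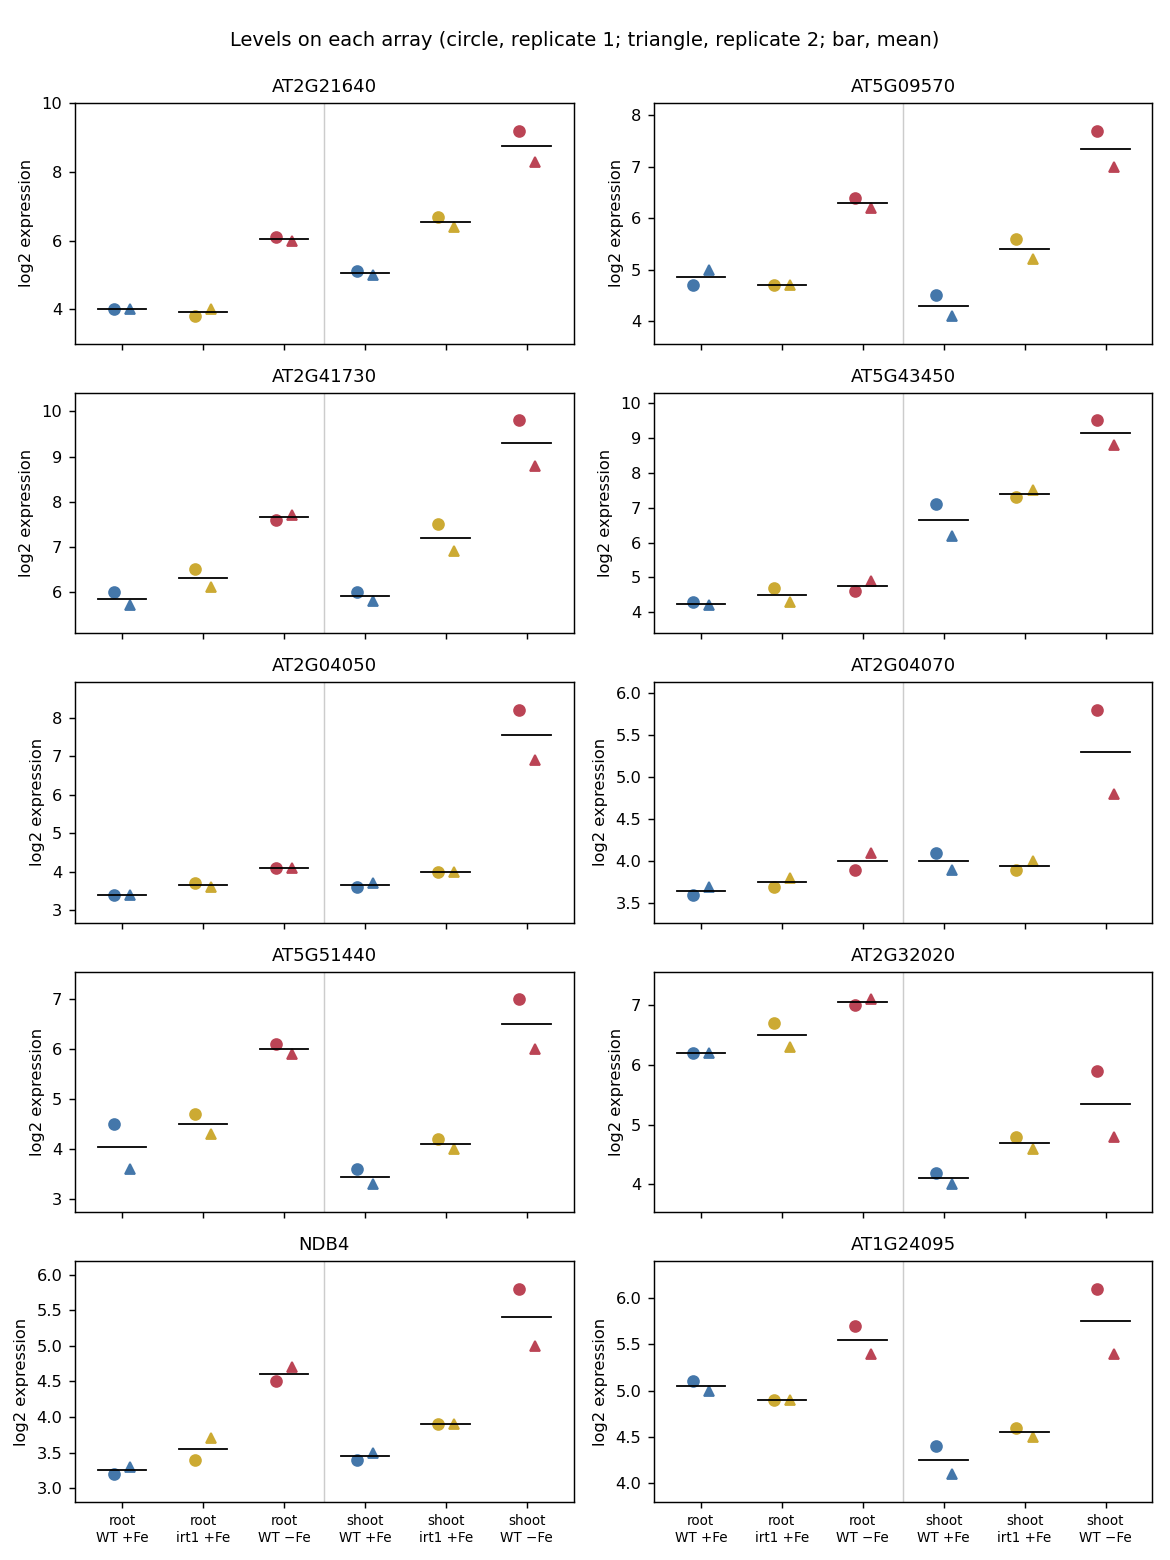
Log2 expression of the 10 genes (y axis, scaled per gene) on each of the 12 arrays, in 6 groups on the x axis, with blue for wild type with Fe, yellow for irt1 with Fe and red for wild type without Fe. In shoots the red points lie above the blue ones for every gene, and replicate 1 (circle) lies above replicate 2 (triangle) in the red group each time.

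To ask whether withdrawing Fe moved these genes in shoots, wild-type shoots without Fe were compared with shoots grown with Fe. All 10 genes rose, by log2 fold changes from 1.25 to 3.90 with a median of 2.78, while the median over all probe sets was 0. A call means a limma adjusted p under 0.05 over all 22746 probe sets, and 2.67% of probe sets were called higher in this comparison. The arrays of the 2 groups did not overlap for any of the 10, a pattern found in the upward direction in 19.7% of all probe sets.

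The transporter gene AT2G04050, which encodes a MATE-type efflux carrier of the kind that exports organic compounds and xenobiotics, had the highest fold change. It read 3.6 and 3.7 with Fe and 8.2 and 6.9 without Fe. It thus stood low on both arrays with Fe, and rose 14.9-fold (log2 3.90 ± 0.29 SE, limma adjusted p = 1.21e-05). AT2G04070, a second MATE gene with 5 annotated genes between it and AT2G04050, read 4.1 and 3.9 with Fe and 5.8 and 4.8 without. Its rise was 1.30 ± 0.24 (SE, limma adjusted p = 0.0103), smaller than that of its neighbour. Binding of either probe set to transcripts of related genes in the same cluster was not tested.

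Genes for mitochondrial proteins rose with them. AT2G21640, whose product is a mitochondrial protein named for its induction by oxidative stress, read 5.1 and 5.0 with Fe and 9.2 and 8.3 without. This is a 13-fold rise (3.70 ± 0.23 SE, limma adjusted p = 2.07e-06). AT5G09570, which encodes a small mitochondrial protein with a twin cysteine motif, went from 4.5 and 4.1 to 7.7 and 7.0 (3.05 ± 0.22 SE, limma adjusted p = 1.1e-05). AT5G51440, a small heat shock protein of mitochondria, had the same log2 fold change of 3.05 ± 0.32, from 3.6 and 3.3 to 7.0 and 6.0. NDB4, an NADH dehydrogenase on the outer face of the inner membrane that passes electrons to ubiquinone without pumping protons, went from 3.4 and 3.5 to 5.8 and 5.0. Its rise of 1.95 ± 0.21 was called at a limma adjusted p of 0.000252, and for each of these genes the lower array without Fe lay at least 1 log2 unit above the higher array with Fe.

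The other 4 genes encode enzymes or proteins of unknown function. AT2G41730, an uncharacterised gene, went from 6.0 and 5.8 to 9.8 and 8.8, a 10.6-fold rise (3.40 ± 0.29 SE, limma adjusted p = 3.44e-05). Its probe set carries the x suffix with which Affymetrix marks probes that may also bind other transcripts. AT5G43450, of the oxygenases that use oxoglutarate and Fe, already read 7.1 and 6.2 in shoots with Fe and reached 9.5 and 8.8 (2.50 ± 0.28). AT1G24095, annotated as a putative thiol-disulphide oxidoreductase, went from 4.4 and 4.1 to 6.1 and 5.4 (1.50 ± 0.20). AT2G32020, of the GNAT acetyltransferase family, read 4.2 and 4.0 with Fe and 5.9 and 4.8 without (1.25 ± 0.27), the smallest change of the 10.

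Without replicate 1 of shoots lacking Fe, the log2 fold changes ran from 0.70 to 3.25 and 9 of 10 genes were called, AT2G32020 excepted (0.70, limma adjusted p = 0.118). AT2G32020 also missed the threshold without either array with Fe (limma adjusted p = 0.0514 and 0.139), AT2G04070 without replicate 2 of them (0.0846), and 5 of 10 were called in a model of the 6 shoot arrays, in which 0.532% of all probe sets were called in either direction.

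In wild-type roots the same withdrawal of Fe raised 5 of the 10 genes, and 0 fell. Of all probe sets 2.69% were called higher and 2.5% lower, and the median log2 fold change was 1.10 for the 10 genes against 0 for all probe sets. AT2G21640 rose from 4.0 on both arrays with Fe to 6.1 and 6.0, by 2.05 ± 0.23 (SE, limma adjusted p = 0.000256). AT5G51440 went from 4.5 and 3.6 to 6.1 and 5.9 (1.95 ± 0.32), with the widest gap between replicates of any of the genes in roots with Fe. AT2G41730 went from 6.0 and 5.7 to 7.6 and 7.7 (1.80 ± 0.29). AT5G09570 rose from 4.7 and 5.0 to 6.4 and 6.2 by 1.45 ± 0.22, and NDB4 from 3.2 and 3.3 to 4.5 and 4.7 by 1.35 ± 0.21 (both at a limma adjusted p of 0.00268). These are the 4 genes for mitochondrial proteins and the uncharacterised AT2G41730.

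The 5 remaining genes were not called in roots in the model of all 12 arrays, although their arrays did not overlap either, and the upward pattern held for 10 of 10 genes against 16.4% of all probe sets. AT2G32020 read 6.2 on both arrays with Fe and 7.0 and 7.1 without, a difference of 0.85 ± 0.27 (SE, limma adjusted p = 0.113). AT2G04050 read 3.4 on both arrays and then 4.1 on both, a difference of 0.70 ± 0.29 (limma adjusted p = 0.253). AT5G43450 and AT1G24095 each differed by a log2 of 0.50, and AT2G04070 by 0.35. Of the 5 called genes, AT2G41730 and AT5G51440 lost the call without replicate 2 of roots with Fe (limma adjusted p = 0.0538 and 0.0602), and AT2G41730 also without replicate 2 of roots lacking Fe (0.0508). The other 3 were called in each of the 12 models that left out 1 array. The SE of the 12-array model pools the spread of all 6 groups. AT2G04050 and AT2G32020 varied most in shoots lacking Fe (SD 0.92 and 0.78, n = 2). Without either array of those shoots their root differences stayed at 0.70 and 0.85. Their missing calls in roots thus depend in part on shoot arrays. The same pooling narrows the SEs and intervals given for such genes in shoots. For the response of AT2G04050 in shoots, the SE was 0.29 in the 12-array model and 0.54 in a fit of only the groups compared. In a model of the 6 root arrays AT2G04050 had an SE of 0.06 and was called (limma adjusted p = 0.0213). AT5G51440 was not called there (0.068).

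Whether the response was larger in shoots than in roots was tested as an interaction in the same model. The shoot response exceeded the root response for 4 of 10 genes, against 1.42% of probe sets called in that direction. For AT2G04050 the difference between the responses was 3.20 ± 0.41 on the log2 scale (SE, limma adjusted p = 0.0017), for AT5G43450 2.00 ± 0.40, for AT2G21640 1.65 ± 0.32 and for AT5G09570 1.60 ± 0.32. The other 6 genes had differences from 0.40 (AT2G32020) to 1.60 (AT2G41730, limma adjusted p = 0.0609). AT2G41730 was called with a floor of 5 on the highest group mean (limma adjusted p = 0.0468), with arrays centred on their median (0.0447) and with the replicate number as a block (0.014), and AT1G24095 with that block (0.0313). All 10 point estimates were thus larger in shoots. Without replicate 1 of shoots lacking Fe 2 genes were called, AT2G21640 and AT2G04050, and the difference of AT2G32020 then became -0.15.

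Basal levels did not follow that order. In wild type with Fe, AT2G32020 was higher in roots than in shoots by a log2 of 2.10 ± 0.27 (SE, limma adjusted p = 3.29e-05) and AT1G24095 by 0.80 ± 0.20, against 32% of probe sets called higher in roots. AT5G43450 was lower in roots by a log2 fold change of -2.40 ± 0.28 and AT2G21640 by -1.05 ± 0.23, against 22.8% called lower. The other 6 genes were not called, with log2 fold changes from -0.35 (AT2G04070) to 0.60 (AT5G51440). AT2G32020 was the single gene with its highest group mean in roots without Fe (7.05 ± 0.07, SD, n = 2), and the other 9 had theirs in shoots without Fe.

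**Figure D2:**
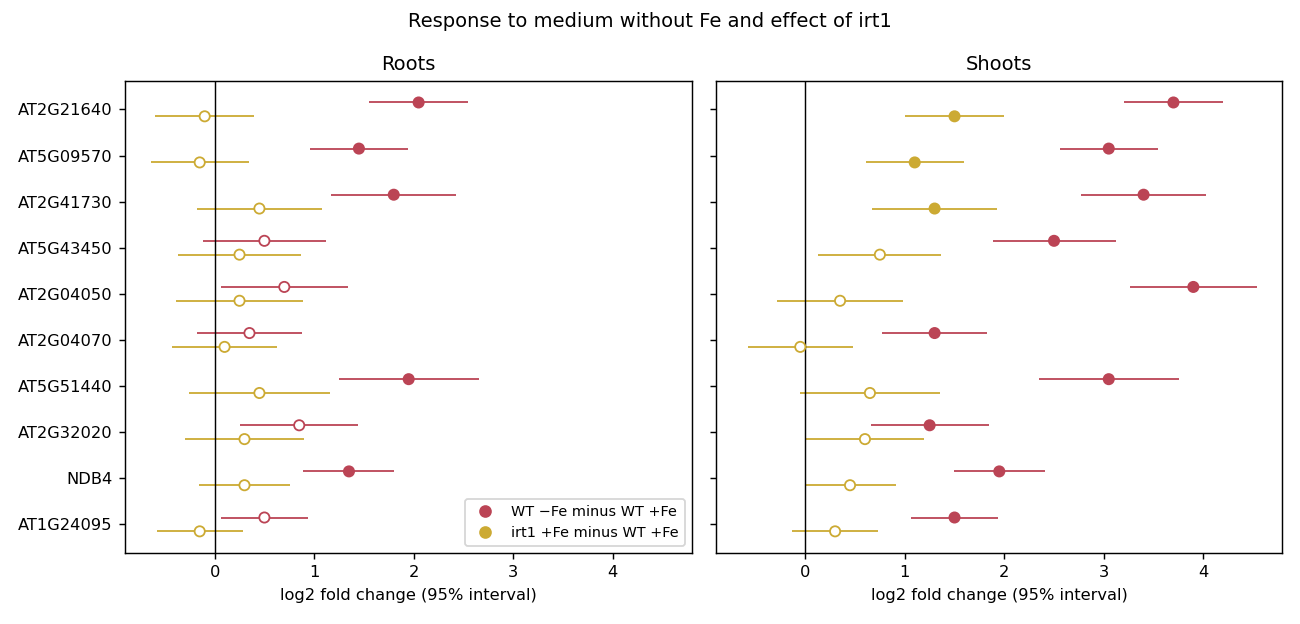
Log2 fold changes (x axis) of the 10 genes against wild type with Fe in roots (left) and shoots (right), red for wild type without Fe and yellow for irt1 with Fe, with 95% intervals from the 12-array model and filled points at an adjusted p under 0.05. In roots the yellow points lie between -0.15 and 0.45, and in shoots the red point of each gene lies to the right of its yellow one.

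To ask what loss of IRT1 does to these genes in plants supplied with Fe, irt1 was compared with wild type on the same medium. This comparison and that of Fe withdrawal share the wild-type arrays with Fe. In irt1 roots 0 of the 10 genes were called, against 1.88% of probe sets called higher and 1.52% lower. Of the 10, 0 had an unadjusted p under 0.05, against 3377 of all 22746 probe sets. Both irt1 arrays lay above both wild-type arrays for 4 genes (15.9% of all probe sets) and below them for 1, AT1G24095 (21.1%). The log2 fold changes lay between -0.15 and 0.45, with a median of 0.25 against 0 for all probe sets. AT2G21640 read 3.8 and 4.0 in irt1 roots, beside 4.0 on both wild-type arrays. Its 95% interval reached from -0.60 to 0.40 and that of AT5G09570, at 4.7 on both irt1 arrays, from -0.64 to 0.34. The widest upper bounds were 1.15 for AT5G51440 (4.7 and 4.3) and 1.08 for AT2G41730 (6.5 and 6.1), so rises of about 2-fold in these genes lay within the intervals. No model with another setting or with an array left out called any of the 10.

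In irt1 shoots 3 of 10 genes rose and 0 fell, with 1.93% of probe sets called higher. The median log2 fold change was 0.63 for the 10 genes and 0 for all probe sets. AT2G21640 read 6.7 and 6.4 in irt1 beside 5.1 and 5.0 in wild type, a rise of 1.50 ± 0.23 (SE, limma adjusted p = 0.00413). AT2G41730 read 7.5 and 6.9 (1.30 ± 0.29, limma adjusted p = 0.0307) and AT5G09570 5.6 and 5.2 (1.10 ± 0.22, limma adjusted p = 0.0214). These 3 were also among the 5 called in roots without Fe.

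The other 7 genes were not called in irt1 shoots. AT5G43450 read 7.3 and 7.5 (0.75 ± 0.28, SE), AT5G51440 4.2 and 4.0 (0.65 ± 0.32), AT2G32020 4.8 and 4.6 (0.60 ± 0.27) and NDB4 3.9 on both arrays (0.45 ± 0.21). AT2G04050 read 4.0 on both arrays, with a log2 fold change of 0.35 and a 95% interval from -0.29 to 0.99. AT2G04070 read 3.9 and 4.0, a difference of -0.05, and was the only gene whose irt1 and wild-type arrays overlapped. In the other 9 both irt1 arrays lay above both wild-type arrays, against 17.7% of all probe sets. Without replicate 1 of irt1 shoots, the array with the high GAPDH difference, AT2G21640 stood at 1.35, AT2G41730 at 1.00 and AT5G09570 at 0.90. None of the 10 genes was called there. Without wild-type replicate 2 only AT2G21640 kept its call (1.45). Both models also called fewer of all probe sets than the model of all 12 arrays, so lost calls are not particular to these genes. Over the 12 models that left out 1 array, AT2G21640 was called in 11, AT5G09570 in 10 and AT2G41730 in 3.

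The irt1 effect was called larger in shoots than in roots for 1 of 10 genes, AT2G21640, by 1.60 ± 0.32 on the log2 scale (SE, limma adjusted p = 0.0287), against 0.87% of probe sets. AT5G09570 followed with 1.25 ± 0.32 (limma adjusted p = 0.0736). AT2G21640 was called in 3 of the 12 models that left out 1 array, with limma adjusted p-values up to 0.132 in the others. It stood at 1.45 without replicate 1 of irt1 shoots, and none of the 10 genes was then called. That model also called fewer of all probe sets than the model of all 12 arrays.

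The mutant supplied with Fe was then set directly against wild type without Fe, to ask how far the marker genes differed between the mutant and the withdrawal of Fe. It shares arrays with both comparisons above. In shoots 9 of the 10 genes were lower in irt1, while only 0.286% of probe sets were called lower and 0.123% higher. The median log2 difference was -1.85 for the 10 genes and 0 for all probe sets. Both irt1 arrays lay below both arrays without Fe for 9 genes, against 12.5% of all probe sets. AT2G04050 differed most, with 4.0 on both irt1 arrays and 8.2 and 6.9 without Fe, or 11.7-fold (-3.55 ± 0.29 SE, limma adjusted p = 0.000417). This was the lowest log2 difference of all 22746 probe sets. AT5G51440 (-2.40 ± 0.32), AT2G21640 (-2.20 ± 0.23), AT2G41730 (-2.10 ± 0.29) and AT5G09570 (-1.95 ± 0.22) ranked 3, 5, 6 and 8 from the low end. Because the genes were chosen with results of these arrays known, these ranks are a description.

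AT5G43450, NDB4, AT2G04070 and AT1G24095 followed in shoots with log2 differences of -1.75, -1.50, -1.35 and -1.20. AT2G32020 was the gene not called, at -0.65 ± 0.27 (SE, limma adjusted p = 0.438), and its lower array without Fe (4.8) equalled the higher irt1 array. AT2G04050, AT2G21640 and AT5G09570 were called in each of the 12 models that left out 1 array. Of the other 6, AT2G41730 and NDB4 were called in 10 of them, AT5G51440 in 9, AT5G43450 and AT1G24095 in 3 and AT2G04070 in 1. Without replicate 1 of shoots lacking Fe, AT2G41730 (-1.60), AT5G51440 (-1.90), AT5G43450 (-1.40), AT2G04070 and AT1G24095 (both -0.85) lost their calls. Without replicate 1 of irt1 shoots, AT5G51440 (-2.50), NDB4 (-1.50), AT5G43450 (-1.65), AT2G04070 (-1.30) and AT1G24095 (-1.25) lost theirs. The median over the 10 genes was -1.50 without replicate 1 of shoots lacking Fe and -2.20 without its replicate 2. It was -1.90 and -1.78 without replicates 1 and 2 of irt1 shoots. Each of these models called fewer of all probe sets than the model of all 12 arrays, so lost calls are not particular to these genes. In a model of the 6 shoot arrays alone 0 genes were called, nor any other probe set. In that model 9 of the 10 had an unadjusted p under 0.05, against 1607 of all 22746 probe sets.

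In roots 5 genes were lower in irt1 than in wild type without Fe, against 0.774% of probe sets. They were the same 5 that rose in roots without Fe: AT2G21640 (-2.15 ± 0.23 SE, limma adjusted p = 0.00112), AT5G09570 (-1.60 ± 0.22), AT5G51440 (-1.50 ± 0.32), AT2G41730 (-1.35 ± 0.29) and NDB4 (-1.05 ± 0.21). Both comparisons share the arrays of roots without Fe, so the overlap is not independent. Both irt1 arrays lay below both arrays without Fe for 9 genes, AT5G43450 excepted, against 14.8% of all probe sets. The median over the 10 genes was -0.85, with 0 for all probe sets, and the other 5 lay between -0.65 (AT1G24095) and -0.25. AT2G21640 was called in all 12 models that left out 1 array, AT5G09570 in 9, NDB4 in 6, and AT2G41730 and AT5G51440 in 4. Without 1 array of roots lacking Fe or of irt1 roots, the median over the 10 genes lay between -0.90 and -0.825. Each of these models also called fewer of all probe sets than the model of all 12 arrays.

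Regulators of the Fe deficiency response were placed beside these values, chosen after their values had been seen. IMA1 (AT1G47400) encodes a peptide of Fe signalling, and bHLH101 and PYE encode bHLH factors of that response. In roots all 3 were lower in irt1 than in wild type without Fe, by log2 differences of -1.85 ± 0.21, -1.25 ± 0.20 and -0.85 ± 0.12 (SE; limma adjusted p at most 0.0109). In shoots none of the 3 was called. IMA1 differed by -0.65 with a 95% interval from -1.11 to -0.19, bHLH101 by 0.00 with an interval from -0.45 to 0.45 and PYE by -0.30 with an interval from -0.57 to -0.03. Leaving out replicate 1 of irt1 shoots, the 3 values were -0.85, -0.20 and -0.45, and without replicate 1 of shoots lacking Fe -0.70, -0.20 and -0.35, and none was called. The marker genes called in shoots had upper interval bounds between -2.91 (AT2G04050) and -0.77 (AT1G24095). AT2G32020, the gene not called, had the same difference as IMA1, -0.65, with an interval from -1.24 to -0.06. The difference between these regulators and the marker genes was not tested.

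**Figure D3:**
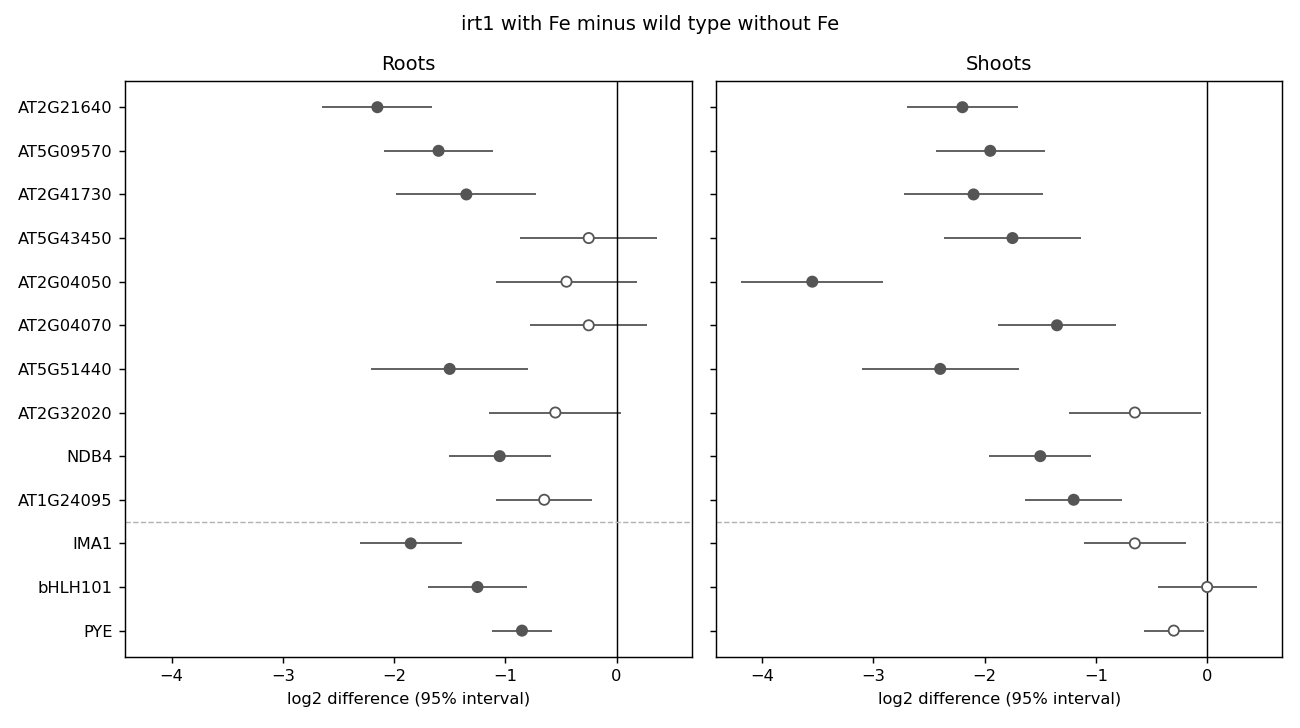
Log2 difference (x axis) between irt1 with Fe and wild type without Fe in roots (left) and shoots (right), with 95% intervals and filled points at an adjusted p under 0.05; the 10 marker genes are above the dashed line and 3 regulators of the Fe deficiency response below it. In shoots 9 marker genes lie between -3.55 and -1.20, and AT2G32020 lies at -0.65. The regulators lie between -0.65 and 0.

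The genes were also compared with each other across arrays. After each organ's mean was subtracted, the 45 pairs had Pearson correlations over the 12 arrays from 0.804 (AT2G04050 with AT2G32020) to 0.992 (AT2G21640 with AT5G09570), with a median of 0.910. The arrays share growth, extraction and normalisation, and the correlations are descriptions that rest largely on the shoots without Fe. Among 463 other named probe sets whose group means spanned at least 1 log2 unit within an organ, the mean profile of the 10 genes was most like that of AT5G56350, of the pyruvate kinase family (r = 0.981). AT2G35480 (r = 0.951) and APL4, a subunit gene of the enzyme that makes ADP-glucose for starch (r = 0.935), came next. AT5G56350 was among the closest 3 for 8 of the 10 genes taken singly. The closest to AT2G21640 and to AT5G09570 was AT3G03270, of the universal stress protein family (r = 0.940 and 0.944).

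Relatives of the marker genes showed other patterns. NDB1, NDB2 and NDB3 encode further type II dehydrogenases, NDC1 a related enzyme, and these were the 4 measured of 13 genes of alternative respiration apart from NDB4. Of these 4, 0 were called in either comparison in either organ. NDB2, the one with the largest response, read 8.7 and 8.3 in roots with Fe and 9.1 and 9.0 without (log2 fold change 0.55), and 6.0 and 5.7 against 6.4 and 6.2 in shoots (0.45). AT5G64400 is a twin-cysteine gene related to AT5G09570, and the 1 measured of 11 others listed here under the mitochondrial dysfunction regulon. It read 11.1 to 11.3 in roots and 10.3 to 10.6 in shoots, with log2 fold changes from -0.15 to -0.05. Its place in that regulon was not tested, and it cannot stand for the unmeasured genes of the list. AT1G52560, a small heat shock gene and the 1 measured of 11 chaperone and protease genes, fell in roots without Fe (-0.95 ± 0.14 SE, limma adjusted p = 0.00169) and in irt1 roots (-1.10 ± 0.14), whereas AT5G51440 rose in the former and was not called in the latter. In shoots AT1G52560 stood at 0.15 in both comparisons. It read 4.4 and 4.3 in wild-type roots with Fe, 3.1 to 3.5 on the other root arrays and 2.6 to 2.9 in shoots. Such low levels could not be told from background.

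**Figure D4:**
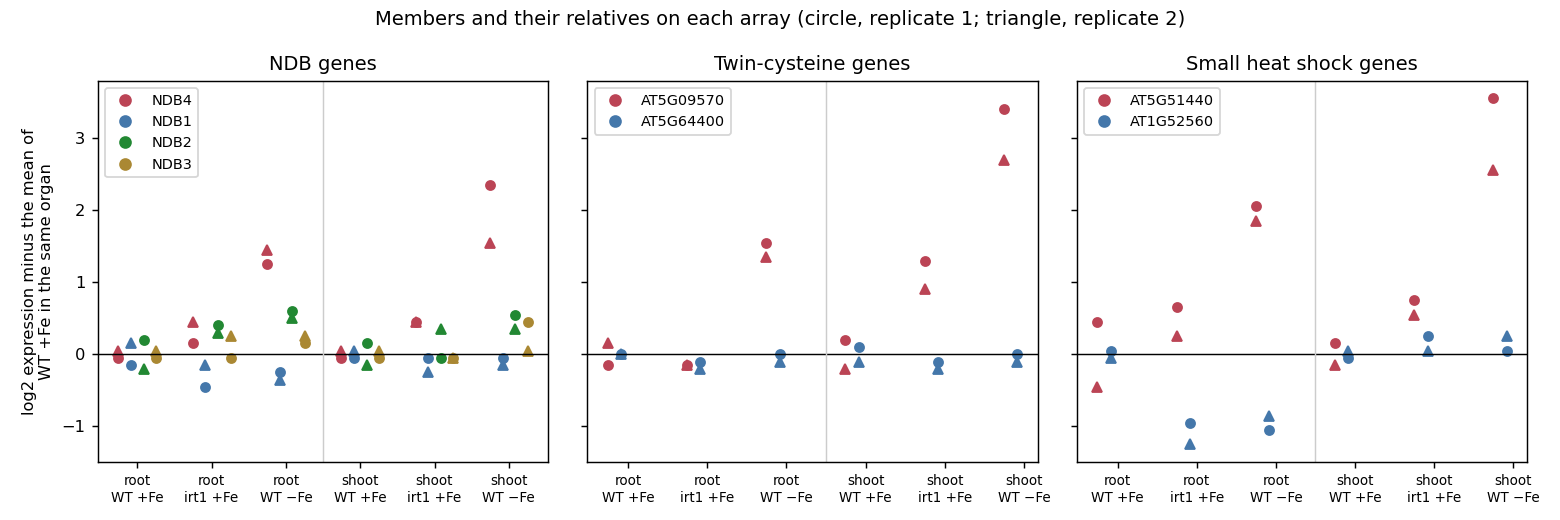
Log2 expression minus the mean of wild type with Fe in the same organ (y axis) on each array of the 6 groups (x axis) for NDB4 and NDB1 to NDB3 (left), AT5G09570 and AT5G64400 (middle) and AT5G51440 and AT1G52560 (right). The marker genes, in red, are highest in shoots without Fe, and their relatives there stay between -0.15 and 0.55.

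Other mitochondrial genes moved little or downward. Of 16 measured nuclear subunits of the respiratory chain (30 in the list), 0 were called in roots in either comparison. In shoots 3 fell without Fe and 0 rose, with a median log2 fold change of 0.08 over the 16 against 0 for all probe sets and 2.19% of probe sets called lower. These 3 were SDH2-1 (-0.85 ± 0.16 SE) and SDH2-2 (-0.70 ± 0.13), for the Fe-S subunit of complex II, and AT3G27240 (-0.70 ± 0.13), for cytochrome c1, a haem protein of complex III. Other genes of the list for haem or Fe-S proteins were not called. AT5G40810, also for cytochrome c1, read 9.0 and 9.1 in wild-type shoots with Fe and 9.0 and 8.9 without. CYTC-1, for cytochrome c, went from 10.3 and 10.1 to 10.5 and 10.4. AT4G02580, for an Fe-S subunit of complex I, went from 9.9 and 9.8 to 10.1 and 10.0. In irt1 shoots SDH2-1, SDH2-2 and AT3G27240 fell too, with log2 values of -0.90, -0.70 and -0.75. None of the others was called there, and 1.65% of probe sets were called lower. Without replicate 1 of irt1 shoots none of the 3 was called there, at -0.65, -0.55 and -0.70 (limma adjusted p = 0.0874, 0.126 and 0.0713). Without replicate 1 of shoots lacking Fe, SDH2-1 lost its call in that group (-0.85, limma adjusted p = 0.101) and the other 2 kept theirs. Of 5 measured genes of mitochondrial Fe import and Fe-S assembly (20 in the list), among them the mitoferrin genes AT2G30160 and AT1G07030 and the scaffold gene ISU1, 0 were called in the 4 comparisons, with log2 fold changes from -0.25 to 0.45.

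Stress genes outside mitochondria were read for comparison. Of 4 measured oxidative and xenobiotic stress genes (18 in the list), GSTU25, a glutathione transferase, and UGT73B4, a glycosyltransferase, rose in roots without Fe, by 1.05 ± 0.20 and 0.65 ± 0.12 (SE). In irt1 roots UGT73B4 rose by 0.75 ± 0.12, in shoots without Fe 0 were called, and in irt1 shoots UGT73B5 rose by 0.80 ± 0.15. UGT73B5 was not called without replicate 1 of irt1 shoots (0.55, limma adjusted p = 0.114). AT3G10040, a transcription factor gene and the 1 measured of 9 core hypoxia genes, rose without Fe in roots (1.00 ± 0.15) and in shoots (0.70 ± 0.15) and was not called in irt1 (-0.10 and 0.25). Its shoot call was lost without replicate 1 of shoots lacking Fe (0.75, limma adjusted p = 0.108). The regulators of retrograde signalling (15 in the list) and the MATE genes beside AT2G04050 and AT2G04070 (5 in the list) had 0 members that the annotation used here gives to a probe set with 1 gene, and AOX1A, the alternative oxidase gene most used as a marker of this response, was not analysed here.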

How the data were processed

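RNA of whole roots and shoots was hybridised to 12 single-colour arrays. For every probe set the authors deposited a log2 value on each array, computed with RMA, per the submitters' processing notes. RMA corrects background, equalises array distributions and summarises the probes of a probe set. Its version, and whether both organs were normalised in a single run, is not given in the sources used. The values run from 1.9 to 13.5 in steps of 1 decimal, with array medians of 5.4 to 5.6. The number of arrays limits the precision. Nothing states separate cultures beyond biological replicates, so p-values measure the spread between these samples.

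The table holds 22810 probe sets; 22746 were tested after 64 Affymetrix control sets had been removed, without a filter on low values. The platform annotation gave 1 gene to 13513, several to 503 and none to 8730. Names were updated through Entrez IDs to the RefSeq table of TAIR10.1 (13484 matched). No table of sequences was given, so none is printed.

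All 12 arrays entered 1 limma 3.58.1 model in R 4.3.3 with a mean per group, and 9 contrasts were tested with eBayes, two-sided, with Benjamini-Hochberg adjustment over 22746 probe sets. Intervals are 95% limma intervals. The 10 genes and the 9 lists of related genes (126 loci, 32 measured, the highest-mean probe set of a locus used) were chosen with earlier results of these data known. All 10 are named, and from each list at most the 2 called genes with the largest change per comparison. As exceptions, the 3 called respiratory genes, uncalled respiratory genes and uncalled relatives were named after their values were seen. For likeness, the 3 named probe sets with the highest correlation were taken. Same-numbered replicates were not treated as pairs in this model. Their deviations correlated positively in 13 of 15 group pairs and above 0.1 in 8, with a range from -0.09 to 0.20. A replicate block is therefore among the alternatives.

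Alternatives were a floor of 5 on the highest group mean, a trended robust eBayes, array weights, fits of fewer arrays, a replicate block, median centring, quantile normalisation, a minimum log2 change of 1, and leaving out each array.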

Additional observations from a re-analysis of the deposited data

Results flagged for a closer look

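Responses that differed between organs by the interaction test were found for AT2G21640, AT5G09570, AT5G43450 and AT2G04050 under Fe withdrawal and for AT2G21640 under irt1. In shoots minus roots, the response to Fe withdrawal differed by a log2 of 3.2 for AT2G04050 (SE 0.41), 2 for AT5G43450 (0.40), 1.65 for AT2G21640 (0.32) and 1.6 for AT5G09570 (0.32), with limma adjusted p-values of 0.0017, 0.0216, 0.019 and 0.0212. The irt1 effect on AT2G21640 differed by 1.6 (SE 0.32, limma adjusted p = 0.0287). AT2G04050 was called in each of 12 models that left out 1 array, with differences from 2.55 to 3.85. The others were called in 6 (AT5G43450), 7 (AT2G21640), 8 (AT5G09570) and, for irt1, 3 of 12. With 2 arrays per group, no test for a single outlying sample was run.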

How the results depend on the processing

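Of the 10 genes, limma called 5 without Fe in roots, 10 in shoots, 0 in irt1 roots, 3 in irt1 shoots, 5 and 9 in irt1 against wild type without Fe in roots and shoots, and 4 and 1 in the differences between organs. Fitting only the groups compared gave 0 for roots and for shoots without Fe, 0 for irt1 shoots, 0 and 0 for irt1 against wild type without Fe, and 1 for the organ difference of the Fe response. In the first 5 of these comparisons that fit called 0, 3, 0, 0 and 0 of all 22746 probe sets, so the counts say nothing particular about the genes. For the organ difference it called 1.97% of all probe sets in either direction, against 3.06% in the model used above. Fitting only the 6 arrays of an organ gave 5 for shoots without Fe, 0 for irt1 shoots, and 1 (roots) and 0 (shoots) for irt1 against wild type without Fe, with 0.532%, 0.352%, 0.0967% and 0% of all probe sets called. For roots without Fe it gave 5 (2.35%), with AT2G04050 gained and AT5G51440 lost. Both fits hold fewer arrays to estimate the spread. A trended robust eBayes gave 3 for irt1 against wild type without Fe in roots (2.14% of all probe sets, against 1.83% in the model used above). It gave 2 for the organ difference of irt1 (2.62% against 2%). For irt1 shoots it gave 2 (4.27% against 3.57%), with AT2G41730 lost (limma adjusted p = 0.0611). Array weights gave 1 for irt1 shoots (1.42% of all probe sets, against 3.57%). They gave 7 for irt1 against wild type without Fe in shoots (0.251% against 0.409%). The genes lost there were AT2G04070 (limma adjusted p = 0.0826) and AT1G24095 (0.0513). The weights were equal for both replicates of each group, so they could not set 1 replicate apart from the other. They were 0.688 and 0.689 in wild-type and irt1 shoots with Fe, and 1.03 to 1.52 in the other groups. The cause of these shifts was not tested. With the replicate number as a block, the organ difference of irt1 held 2 genes (2.84% of all probe sets, against 2%). That of the Fe response held 6 (3.88% against 3.06%), with AT2G41730 and AT1G24095 added. All 6 groups correlated best with their own number, a hint from the data and not from the design. Leaving out 1 array at a time gave 3 to 7 genes without Fe in roots, 8 to 10 in shoots, 0 in irt1 roots, 0 to 3 in irt1 shoots, 1 to 5 and 3 to 10 in irt1 against wild type without Fe in roots and shoots, 1 to 8 and 0 to 2 in the organ differences and 4 to 6 between organs with Fe. No called value changed sign. The share of all probe sets called also varied between these models, so the ranges of counts cannot be read as a trait of the 10 genes alone. Each locus had 1 probe set, so other probe sets gave no value. Signal over background is not given per probe set, so low levels could not be told from background. The leave-out values of the regulators, respiratory subunits, UGT73B5 and AT3G10040 were added after the data had been seen.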
